A study of Mus musculus with 4 samples.

Results

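Actin cytoskeleton genes were followed through single macrophages and monocytes of the mouse colon. The 10 members were found by their Ensembl identifiers among the 12596 genes of the UMI table: the cytoplasmic actins Actb and Actg1, the thymosins Tmsb4x and Tmsb10, profilin (Pfn1), cofilin (Cfl1), coronin 1A (Coro1a), L-plastin (Lcp1), vimentin (Vim) and Lsp1. They were chosen by their measured UMI levels along C1q in these same cells, so that those levels are given as a description without a test. Each of the 10 passed the filter on low counts in every comparison. The cells were CD11b+ cells with Ly6C, CD64 or both, sorted from the colonic lamina propria of male C57/Bl6N wild-type mice. Diesel exhaust particles (DEP) were given to 2 mice (14 and 15) and PBS to 2 mice (2 and 3), by gavage of 12 µg in 200 µL, or of PBS alone, on 5 days per week for about 6 months. Each mouse filled 1 well of a single batch, so that a difference between wells and one between mice cannot be told apart.

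Actin cycles between single molecules and filaments. Thymosins hold single actin molecules in reserve, profilin hands them to growing filament ends, and cofilin cuts old filaments and returns their actin to the pool. Coronin 1A and L-plastin are the leukocyte forms of a filament regulator and a filament bundler, Lsp1 is a leukocyte actin-binding protein, and vimentin forms intermediate filaments, a separate network. Monocytes enter the colon from the blood and mature there into resident macrophages, which make the complement component C1q. The summed share of C1qa, C1qb and C1qc in a cell's UMIs (unique molecular identifiers, 1 per captured RNA molecule) was therefore used to order the cells.

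Of 943 deposited cells, 770 were retained. The other 173 held UMIs of at least 3 genes from the marker list of a cell class other than macrophages and monocytes, for 155 of them that of B and plasma cells, and were not used. In 135 of these the call needed an immunoglobulin or J chain transcript (Igkc, Ighm, Jchain or Iglc2). When these 4 were not used, 38 cells were left out. DEP mice 14 and 15 lost 40 of 189 and 81 of 334 cells. PBS mice 2 and 3 lost 23 of 200 and 29 of 220 cells. Mice 14 and 15 gave 149 and 253 retained cells with 678525 and 882005 UMIs, and mice 2 and 3 gave 177 and 191 cells with 626313 and 940056 UMIs. C1q made up under 0.3% of the UMIs in 137 cells, 0.3 to 1% in 56 and above 1% in 577. The monocyte list (13 genes, Ly6c2, Ccr2 and Plac8 among them) summed to 12571 CPM (the UMI count scaled to library size) in the first bin, 4390 in the second and 857 in the third, and the resident macrophage list (13 genes) to 8017, 31056 and 65696 CPM. The resident list includes C1qa, C1qb and C1qc, which define the bins. Its rise, and its place over the monocyte list above 1%, were thus in part set by the bins. Ly6c2, a monocyte surface protein, was at 740, 257 and 17.8 CPM. Of the genes of the sort, Itgam (CD11b) was at 92.5, 204 and 116 CPM and Fcgr1 (CD64) at 164, 251 and 227 CPM. By mouse, the monocyte list stood above the resident list under 0.3% C1q in mice 14, 15 and 3 but not in PBS mouse 2 (11899 against 14754 CPM), and below it in all 4 mice above 1%. The B and plasma cell list stood at 465, 490 and 583 CPM and the T cell list at 21.3, 29.1 and 59.2 CPM. Under 0.3% C1q, 4 of the 10 B and plasma cell genes and 5 of the 10 T cell genes had UMIs. Cd79a and Cd3e were at 0 below 1% C1q. Cells with at least 3 genes of 1 of these lists had been left out, so that low values follow in part from that rule. A dendritic cell list was not used to leave out cells, since monocyte-derived cells share its genes. In the retained cells it stood at 431, 496 and 397 CPM. Of the barcodes, 1 was shared between libraries.

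The thymosins and the actins are pairs of similar genes, and their coding sequences are shown because reads of one copy could be counted for the other. The 135 coding bases of Tmsb4x and Tmsb10 (GENCODE annotation of GRCm38) were identical at 95 positions, or 70.4%, and capitals mark the bases that differ.
Tmsb4x: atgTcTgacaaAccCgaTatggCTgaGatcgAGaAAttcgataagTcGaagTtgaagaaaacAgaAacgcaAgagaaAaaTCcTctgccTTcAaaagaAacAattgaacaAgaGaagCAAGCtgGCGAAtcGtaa
Tmsb10: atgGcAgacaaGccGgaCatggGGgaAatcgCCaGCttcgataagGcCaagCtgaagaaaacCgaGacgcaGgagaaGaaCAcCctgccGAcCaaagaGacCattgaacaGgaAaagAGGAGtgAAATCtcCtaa
The 1128 coding bases of Actb and Actg1 were identical at 1000 positions, or 88.7%. The first 60 bases, which encode the amino end where the beta and gamma actins differ, are given with the differing bases in capitals.
Actb: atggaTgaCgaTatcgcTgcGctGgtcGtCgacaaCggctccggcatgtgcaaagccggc
Actg1: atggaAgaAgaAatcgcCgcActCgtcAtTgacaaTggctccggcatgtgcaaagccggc
The assay reads the 3′ end of a transcript. In the last 500 transcript bases, 0 of 471 words of 30 bases were shared between the thymosins, and 0 of 471 between the actins. A read from this stretch thus tells the genes of a pair apart, and other genes were not compared. The 3′ counts are counts of molecules and were not scaled to transcript length.

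Tmsb4x was the most abundant of the 10 genes in every mouse. Its level was 22088 and 21351 CPM in DEP mice 14 and 15 and 20399 and 20152 CPM in PBS mice 2 and 3, which made it the 5th most abundant gene of the table. Actb followed with 7767, 8638, 11890 and 6945 CPM in mice 14, 15, 2 and 3. Mouse 2 stood highest for Actb, 1.71 times the lowest mouse, and Tmsb4x differed by only 1.1 times between mice. Mean levels over the 4 mice were 2257 CPM for Pfn1, 1662 for Actg1, 1523 for Tmsb10, 1132 for Cfl1, 933 for Vim, 704 for Coro1a, 442 for Lcp1 and 254 for Lsp1. In this order the ranges over mice overlapped between Actg1 and Tmsb10, between Tmsb10 and Cfl1 and between Cfl1 and Vim, and no other neighbours overlapped. Together the 10 genes made up 3.92% and 3.98% of all UMIs in the DEP mice and 4.01% and 3.58% in the PBS mice. Per bin of C1q they held between 5.29% and 5.83% of the UMIs under 0.3% and between 3.4% and 3.8% above 1%, and the 2 ranges of 4 mice did not overlap.

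**Figure D1:**
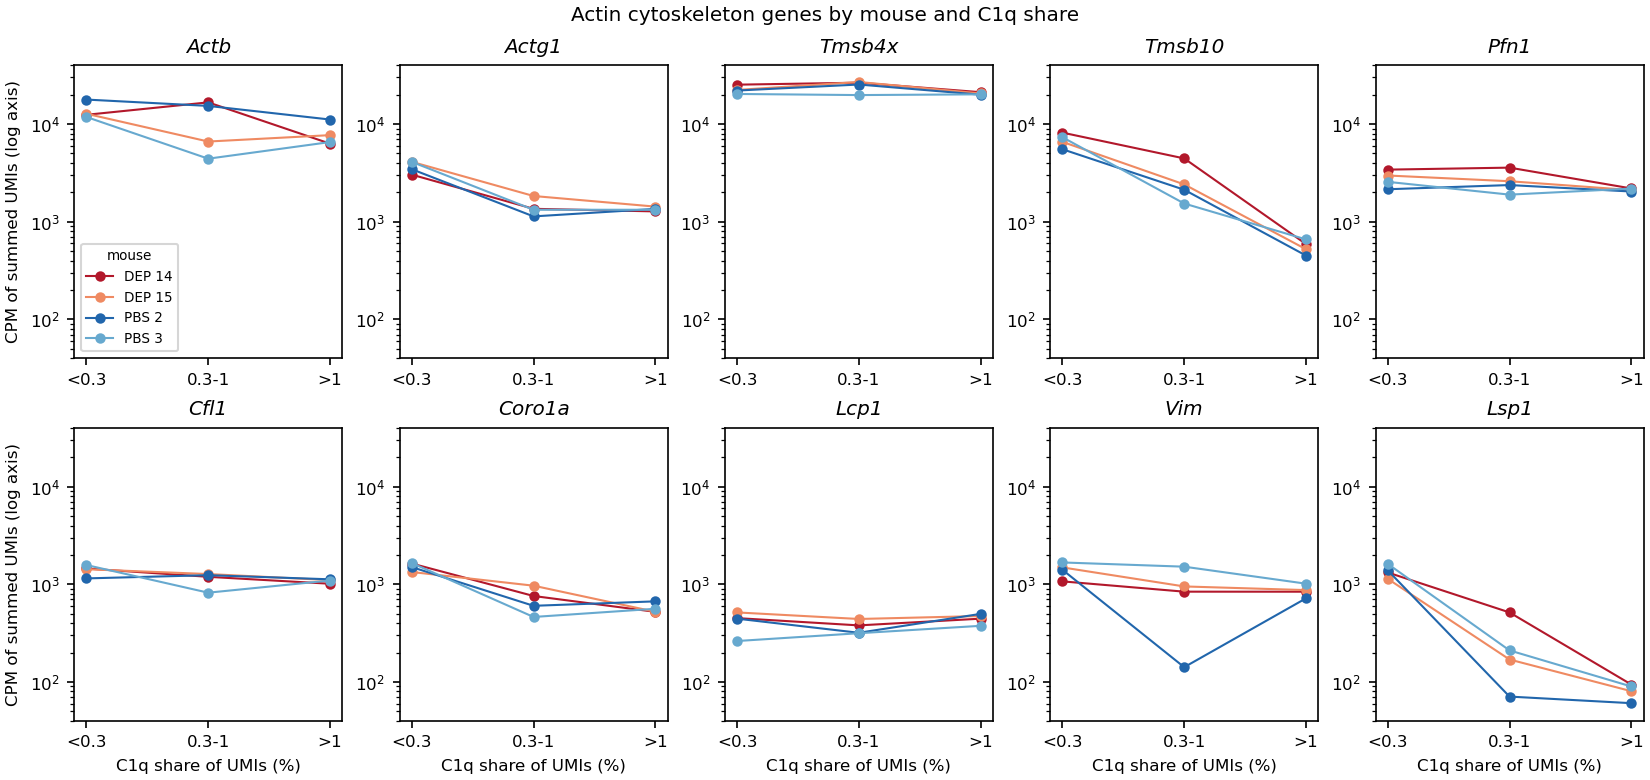
Level of each member in CPM, from UMIs summed per mouse and bin (vertical, log axis) against the bin of C1q share of UMIs (horizontal), with 1 line per mouse. Tmsb10 and Lsp1 are lower at each step in each of the 4 mice, and Tmsb4x lies between 19801 and 26964 CPM throughout.

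Tmsb10, the less abundant thymosin, and Lsp1 differed most along C1q. In cells under 0.3% C1q, Tmsb10 was at 8171 and 6574 CPM in DEP mice 14 and 15 and at 5523 and 7330 CPM in PBS mice 2 and 3. In the middle bin it was at 4447, 2411, 2125 and 1536 CPM in mice 14, 15, 2 and 3, and above 1% C1q at 591, 523, 450 and 659 CPM. Each mouse was lower at each step, and the 3 bins did not overlap between mice. On the log2 scale (pseudocount 10 CPM) the first bin exceeded the last by 3.61 ± 0.13 (SD, n = 4 mice), or 12.2 times. Lsp1 was at 1322 and 1138 CPM in DEP mice 14 and 15 and at 1390 and 1619 CPM in PBS mice 2 and 3 under 0.3% C1q. Above 1% it was at 94.1, 80.4, 60.6 and 89.9 CPM in mice 14, 15, 2 and 3, so that the ratio was 3.92 ± 0.31 (SD, n = 4), or 15.1 times. By this ratio Lsp1 ranked 11th and Tmsb10 15th of the 5322 genes tested, of which 0.432% exceeded 3 on the log2 scale.

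Actg1 and Coro1a formed a middle group. Actg1 stood at 3034 and 4105 CPM (DEP mice 14 and 15) and 3447 and 4102 CPM (PBS mice 2 and 3) under 0.3% C1q, and between 1275 and 1428 CPM above 1%. The ratio was 1.43 ± 0.17 (SD, n = 4), or 2.70 times. Coro1a stood at 1632, 1336, 1501 and 1652 CPM in mice 14, 15, 2 and 3 under 0.3%, against 522, 523, 669 and 562 CPM above 1%, a ratio of 1.41 ± 0.21. For both genes every mouse lay above every mouse of the other bin. Actb, the more abundant actin, differed less, with 6300 to 11124 CPM above 1% C1q and 11815 to 17812 CPM under 0.3%, a ratio of 0.81 ± 0.14. The level of Actg1 was thus 19.4% to 34.7% of that of Actb under 0.3% C1q and 12.2% to 20.3% above 1%. Vim had a ratio of 0.70 ± 0.26, with 1071, 1489, 1409 and 1674 CPM in mice 14, 15, 2 and 3 under 0.3% C1q and 840, 872, 719 and 1015 CPM above 1%.

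Pfn1, Cfl1, Tmsb4x and Lcp1 differed little. Pfn1 and Cfl1 both had a ratio of 0.36, with an SD of 0.25 and 0.23 (n = 4), and Tmsb4x one of 0.13 ± 0.10. Lcp1 had a ratio of −0.13 ± 0.27, with 451, 515, 445 and 263 CPM in mice 14, 15, 2 and 3 under 0.3% C1q against 445, 473, 498 and 376 CPM above 1%. It was higher under 0.3% in 2 of the 4 mice. The other 9 members were higher under 0.3% in all 4 mice, as were 23.2% of all genes tested and 52.2% of the 498 genes at least as abundant as Lsp1, and 0 members were lower in all 4 (14.5% and 22.1%). Among the members, 7 had every mouse of the first bin above every mouse of the last, against 14.8% of all genes tested and 40.2% of those 498. Since the members were chosen with this contrast known, nothing is read from these shares. The median ratio was 0.75 over the 10 members, 0.05 over all genes tested and 0.27 over the 498 genes.

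The scale matters for the small ratios. Scaling the 12 mouse-by-bin libraries by TMM lowered the median ratio of all genes by 0.37, from 0.05 to −0.32. The middle of the genes was thus not level after TMM scaling. The median ratio of the members fell by 0.47, to 0.28. On this scale Tmsb4x, Pfn1 and Cfl1 changed sign, to −0.34, −0.12 and −0.11, and 5 of the 10 members (Actb, Actg1, Tmsb10, Coro1a and Lsp1) were higher in all 4 mice, against 9.06% of all genes tested, and 2 (Tmsb4x and Lcp1) were lower in all 4, against 30%. Tmsb10 was at 3.14 and Lsp1 at 3.48. Over all 943 deposited cells 7 members were higher in all 4 mice, and Tmsb4x turned to −0.09.

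**Figure D2:**
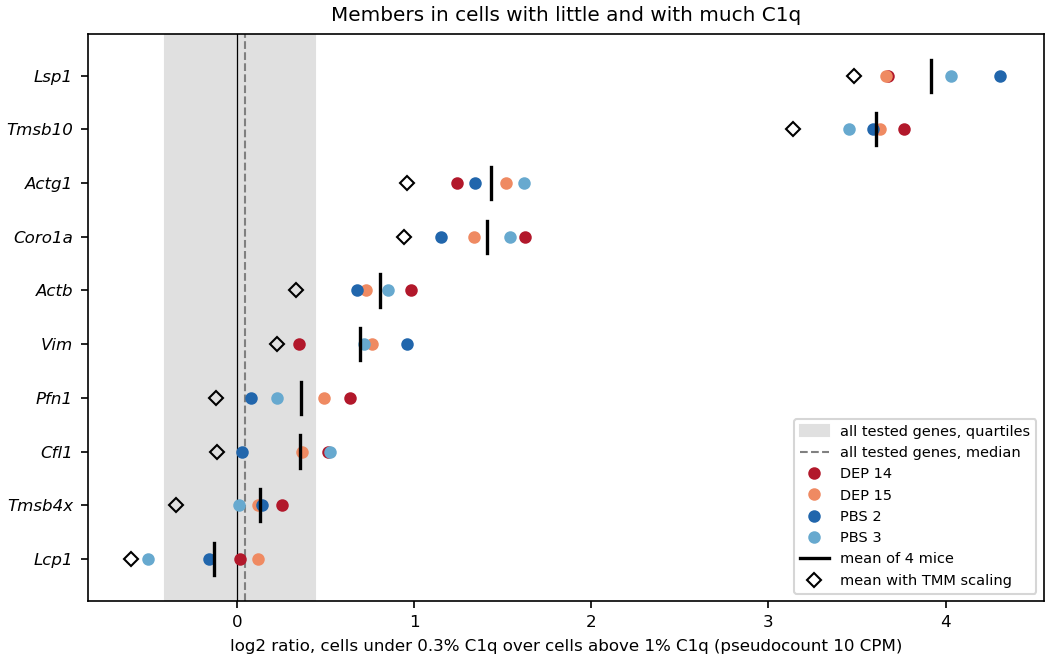
Log2 ratio of each member's level in cells under 0.3% C1q to that in cells above 1% C1q (horizontal, pseudocount 10 CPM), with 1 point per mouse, a bar for the mean of 4 mice and a diamond for the mean after TMM scaling, over the median and quartiles of the 5322 genes tested. Lsp1 and Tmsb10 stand at 3.92 and 3.61, and Tmsb4x, Pfn1 and Cfl1 lie to the right of 0 on the CPM scale and to the left of it after TMM scaling.

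Single cells were compared after each was thinned to 1000 UMIs, a depth that every cell reached. Median depths before thinning were between 2651 and 3996 UMIs per cell under 0.3% C1q and between 2778 and 4807 above 1%, by mouse. Of the thinned cells, 94.9% had a Tmsb10 UMI under 0.3% C1q, 78.6% in the middle bin and 34.0% above 1% (97.1%, 87.5% and 59.6% before thinning). At least 3 Tmsb10 UMIs were found in 84.7% and 5.03% of the cells of the outer bins. Lsp1 was detected in 66.4%, 17.9% and 7.97% of the thinned cells (88.3%, 37.5% and 21.1% before thinning). Free RNA adds UMIs to cells that do not express a gene, and no class that lacks these genes was present in more than 5 cells, so that this background was not measured. Actb was spread widely within each bin. Its median was 7 UMIs per thinned cell under 0.3% C1q with the 10th and 90th percentiles at 2 and 36.4, and 5 above 1% with 1 and 24. These values pool all mice. Above 1% the median was 4, 4, 14.5 and 4 in mice 14, 15, 2 and 3, so that part of the spread lies between mice. Tmsb4x was present in every thinned cell, with a median of 22 UMIs under 0.3% and 19 above 1%. Its 10th and 90th percentiles were 13 and 34 in the first bin and 11 and 31 in the last, a much narrower spread than that of Actb.

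**Figure D3:**
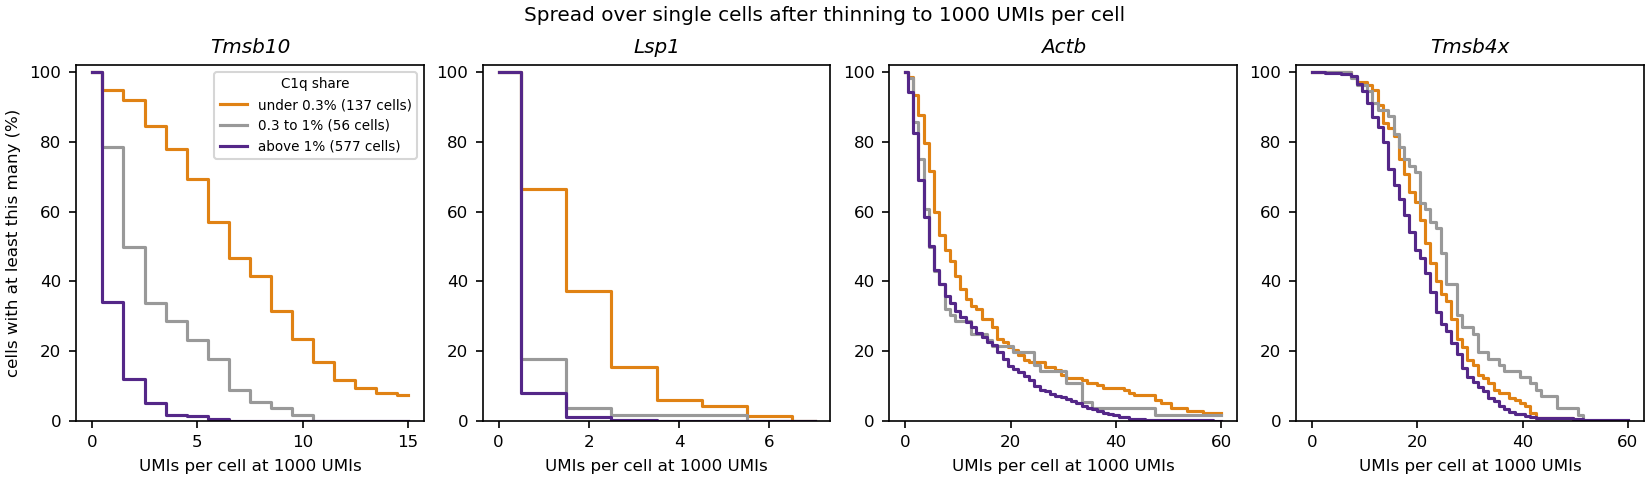
Share of cells (vertical, %) with at least a given number of UMIs of a gene (horizontal) after thinning to 1000 UMIs per cell, for Tmsb10, Lsp1, Actb and Tmsb4x in the 3 bins of C1q share. The curves of Tmsb10 lie apart, with 84.7%, 33.9% and 5.03% of cells at 3 UMIs or more, and those of Tmsb4x lie close together.

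The middle bin held only 10 to 19 cells per mouse, and its values varied accordingly. Actb was at 16675 and 15339 CPM in mice 14 and 2 and at 6622 and 4419 CPM in mice 15 and 3. A single cell gave 30.9% and 32.6% of the Actb UMIs of mice 14 and 2. Tmsb10 and Lsp1 lay between the outer bins in all 4 mice, Actg1 and Vim in 3, Coro1a and Cfl1 in 2, Actb, Pfn1 and Lcp1 in 1 and Tmsb4x in none. Over the 12 mouse-by-bin libraries, the members most alike were Actg1 and Coro1a (Pearson r = 0.93 of log2 CPM) and Tmsb10 and Lsp1 (r = 0.92). These are descriptions, since the libraries share mice and bins. Among the 1152 non-member genes with a mean of at least 100 CPM, those nearest to Lsp1 were Eno1 (r = 0.98), a glycolytic enzyme, Alox5ap (r = 0.98), which serves leukotriene synthesis, and Lyz2 (r = 0.97), the lysozyme of myeloid cells. Nearest to Lcp1 were Cd86, a costimulatory receptor (r = 0.81), Gbp3, an interferon-inducible GTPase (r = 0.74), and Syngr2 (r = 0.72).

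The first question of the design, whether oral DEP changes these macrophages, was put to the members over all retained cells. Tmsb10 was at 1916 and 1861 CPM in mice 14 and 15 of the DEP group and at 963 and 1352 CPM in mice 2 and 3 of the PBS group, so that the groups did not overlap. The log2 fold change was 0.67 with an SE of 0.15 (edgeR quasi-likelihood test, adjusted p = 0.280 over 5322 genes by Benjamini-Hochberg), and the change did not pass the threshold of 0.05. Lsp1 was at 298 CPM in both DEP mice, and PBS mice 2 and 3 had 176 and 245 CPM, with a log2 fold change of 0.46 (SE 0.18, edgeR adjusted p = 0.675). Of the 10 members 0 were called, where 2 of 5322 genes (0.0376%) were. At an unadjusted p under 0.05 there were 2 members (Tmsb10 and Lsp1), and 347 genes, or 6.52%. DESeq2 called 0 members. The DEP mice were both above the PBS mice for 4 members (Tmsb4x, Tmsb10, Pfn1 and Lsp1), as for 20.9% of all genes, and below for 0, as for 16.6%. The median log2 fold change was 0.08 over the members and −0.01 over all genes. Actb had a value of −0.23 (SE 0.19, edgeR adjusted p = 0.848), and without mouse 2 of PBS it was 0.22.

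The call for Tmsb10 depended on single libraries and on the filter. Its log2 fold change was 0.51 with all deposited cells and 0.49 with the immunoglobulin transcripts not used. Its adjusted p over the 11 alternatives ran from 0.000542 to 0.9998, and it was called in 3 of them: without mouse 14 (0.00567), without mouse 15 (0.00277) and without the filter on low counts (0.000542). Without PBS mouse 2 or 3 it was not called. With a mouse left out, 1 arm holds a single mouse, which is assumed to vary like the 2 of the other arm, in these and the other such values.

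The share of cells per bin moved with this result. Cells under 0.3% C1q made up 20.1% and 24.5% of the retained cells of the DEP mice (95% exact binomial intervals 14 to 27.5% and 19.3 to 30.3%) and 10.7% and 13.6% of those of the PBS mice (6.59 to 16.3% and 9.09 to 19.3%). On average this was 22.3% ± 3.09 (SD, n = 2) for DEP and 12.2% ± 2.04 for PBS, a difference of 10.1 percentage points (exact two-sided permutation test, p = 0.33, the smallest that the 6 arrangements of 2 against 2 mice allow). With the cells divided by C1q share into 3 equal groups, the difference in the lowest was 5.76 points and the mice of the 2 treatments overlapped (exact permutation test, p = 0.67). These cells gave 13.5% of all UMIs but 61.2% of the Tmsb10 UMIs and 69.1% of the Lsp1 UMIs. By mouse, they gave 62.8% and 70.7% of the Tmsb10 UMIs upon DEP and 49.4% and 52.7% upon PBS. When 626 cells were drawn so that the bins had the same shares in every mouse, the log2 fold change of Tmsb10 fell to 0.15 and that of Lsp1 to −0.19. The monocyte marker list moved with the same bins, and its part in the result was not tested.

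Within the bins no difference of Tmsb10 or Lsp1 passed the threshold. Under 0.3% C1q its log2 fold change was 0.24 (SE 0.18, edgeR adjusted p = 0.939) with overlapping groups, in the middle bin 0.88 (SE 0.33, adjusted p = 0.434), and above 1% −0.01 (SE 0.18, adjusted p = 0.998). The values of the middle bin rest on 60 to 164 Tmsb10 UMIs per mouse, and 1 cell gave 42.7% of those of mouse 14. Lsp1 had a value of −0.25 (SE 0.22, edgeR adjusted p = 0.959) under 0.3% C1q, where both DEP values were below those of PBS, of 0.98 (SE 0.55, adjusted p = 0.793) in the middle bin, on 2 to 19 UMIs per mouse, and of 0.17 (SE 0.25, adjusted p = 0.965) above 1%. The differences between bins were not tested.

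Of the 10 members, 0 were called in any bin. Under 0.3% C1q, 30 of 4746 genes (0.632%) were called, and 303 genes (6.38%) and 1 member, Pfn1, had an unadjusted p under 0.05. Mice 14 and 15 had 3415 and 2973 CPM and mice 2 and 3 had 2150 and 2560 CPM, a log2 fold change of 0.48 (SE 0.20, edgeR adjusted p = 0.477). The DEP mice were both above the PBS mice for 3 members there (Tmsb4x, Pfn1 and Lcp1; 18.3% of all genes) and below for 1 (Lsp1; 17.7%). In the middle bin 23 of 4956 genes (0.464%) were called, and 291 genes (5.87%) and 1 member, Tmsb10, had an unadjusted p under 0.05. The DEP mice were both above the PBS mice for 6 members (20.6% of all genes), and below for 0 (17.7%). Above 1% C1q edgeR called 0 of 5538 genes (0.00%), 298 genes had an unadjusted p under 0.05 and 0 members did, and DESeq2 called 0 genes. There Tmsb4x was above in both DEP mice (17.6% of all genes) and Coro1a below (16.7%). Above 1% C1q, Actb was at 6300, 7698, 11124 and 6540 CPM in mice 14, 15, 2 and 3, with a log2 fold change of −0.35 (SE 0.17, edgeR adjusted p = 0.892). It was called without mouse 15 (−0.51, adjusted p = 0.00185) and without mouse 3 (−0.69, 0.00401), and was 0.10 without mouse 2, the mouse in which it was high. Vim was called in the middle bin without PBS mouse 3 (2.81, adjusted p = 0.0215), where PBS mouse 2 alone had 4 Vim UMIs. In simulated data of the same depth, 200 genes drawn at random from all genes tested were changed. Changes of 1 on the log2 scale, which no member's value reached, were recovered in 37% over all cells and 35% above 1% C1q. Under 0.3% this was 2%, and in the middle bin 0%. Changes of 2 were recovered in 91%, 90%, 35% and 13%. The shares hold for all genes tested and were not taken for genes as abundant as the members.

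**Figure D4:**
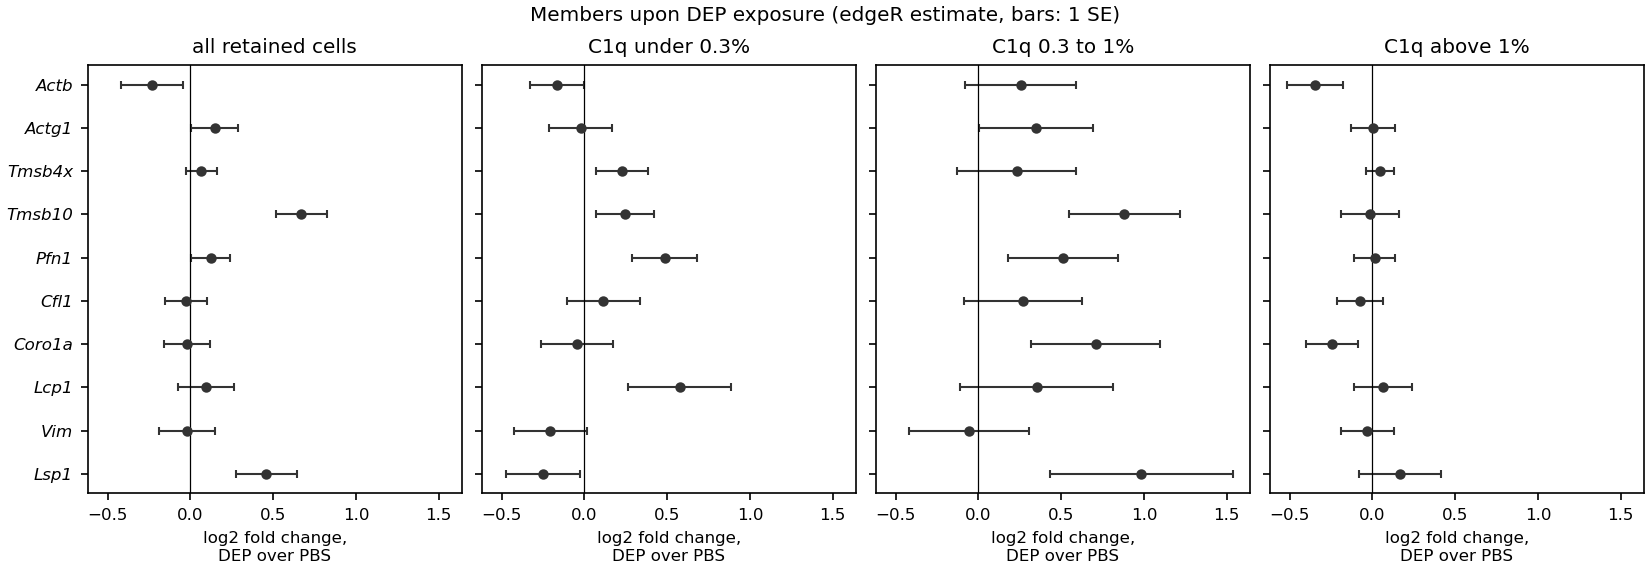
Log2 fold change of each member, DEP over PBS (horizontal), over all retained cells and in each bin of C1q share, with bars of 1 SE from edgeR. Tmsb10 stands at 0.67 over all cells and at −0.01 in cells above 1% C1q, and no member passed an adjusted p of 0.05 in any panel.

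Other actin and tubulin genes were counted from 9 lists with 109 genes, of which 106 were in the table and 83 passed the filter. Under 0.3% C1q 47 of the 83 were higher than above 1% in all 4 mice and 7 were lower, and after TMM scaling 20 were higher and 19 lower. Of all genes tested 23.2% were higher and 14.5% lower, and 9.06% and 30% after TMM scaling. Of the 498 genes at least as abundant as Lsp1, 52.2% were higher and 22.1% lower on the CPM scale. Not all of the 83 reach that level. The median ratio of the 83 was 0.43 on the CPM scale and 0.03 after TMM scaling, against 0.05 and −0.32 for all genes tested. Of the Arp2/3 complex, which starts branched filaments, 8 of 9 subunits were higher in all 4 mice (3 of 9 after TMM scaling), with Arpc1b at 1.08 ± 0.07 (SD, n = 4) and Arpc2 at 1.02 ± 0.17. Of the formins and Ena/VASP proteins, which lengthen filaments, 4 of 5 were higher (3 after TMM scaling), among them Vasp at 0.87 ± 0.15, and of the linkers to membrane and adhesion sites 7 of 9 were (3 after TMM scaling), among them Msn (moesin) at 1.0 ± 0.09, Zyx (zyxin) at 1.88 ± 0.27 and Ahnak at 1.59 ± 0.99. Of the capping and severing proteins 5 of 9 were higher (1 after TMM scaling). Capg, a capper of filament ends in macrophages, had the largest ratio of the lists, 2.79 ± 0.68, and stood between 544 and 667 CPM under 0.3% C1q and between 45.9 and 124 CPM above 1%.

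Of the cross-linking proteins 6 of 9 were higher and 1 was lower (3 and 1 after TMM scaling), with Cnn2 (calponin 2) at 1.34 ± 0.39 and Tagln2 (transgelin 2) at 0.76 ± 0.28. Of the tropomyosins and myosins 7 of 11 were higher and 2 lower (4 and 2), with Myo1g at 1.41 ± 0.24 and Myl6, a myosin light chain, at 0.68 ± 0.10. Of the monomer turnover list 5 of 10 were higher and 0 lower (2 and 2), with Cotl1 at 0.31 ± 0.24, which turned to −0.16 after TMM scaling. The nucleation promoting list was mixed, with 3 of 12 higher and 2 lower (1 and 6). Of the most abundant genes per list not yet named, Capza2 and Capzb (subunits of capping protein) had ratios of 0.62 and 0.63, Fermt3 (kindlin 3) 0.48, Myl12a 0.46, Brk1 0.43, Hcls1 0.38, Coro1b 0.21, Evl −0.32 and Tuba1b −0.55. After TMM scaling Myl12a, Brk1, Hcls1 and Coro1b changed sign, to between −0.24 and −0.01.

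Some genes ran the other way. They did so also after TMM scaling, but this lowered their ratios further and so was no test of their direction. Marcks, which binds actin and the plasma membrane, was lower under 0.3% C1q in all 4 mice with a ratio of −1.53 ± 0.77, as were Tubb5, a beta tubulin (−0.73 ± 0.30), and Abi1, a subunit of the WAVE complex (−0.51 ± 0.58). Of the 9 tubulins tested 2 were higher and 2 lower (0 and 5 after TMM scaling). Upon DEP exposure edgeR called 0 genes of these lists over all cells, under 0.3% and above 1% C1q. An unadjusted p under 0.05 was found for 1 of 83, 3 of 79 and 3 of 84, against 6.52%, 6.38% and 5.38% of all genes. In the middle bin 6 of 81 had an unadjusted p under 0.05 (5.87% of all genes) and 1 was called. This was Marcksl1, a relative of Marcks, with 841, 662, 354 and 126 CPM, on 31, 39, 10 and 6 UMIs in mice 14, 15, 2 and 3. Its log2 fold change was 1.72 (SE 0.46, edgeR adjusted p = 0.0382), and it was called in 3 of the 11 alternatives, with adjusted p between 1.26e-05 and 0.997.

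**Figure D5:**
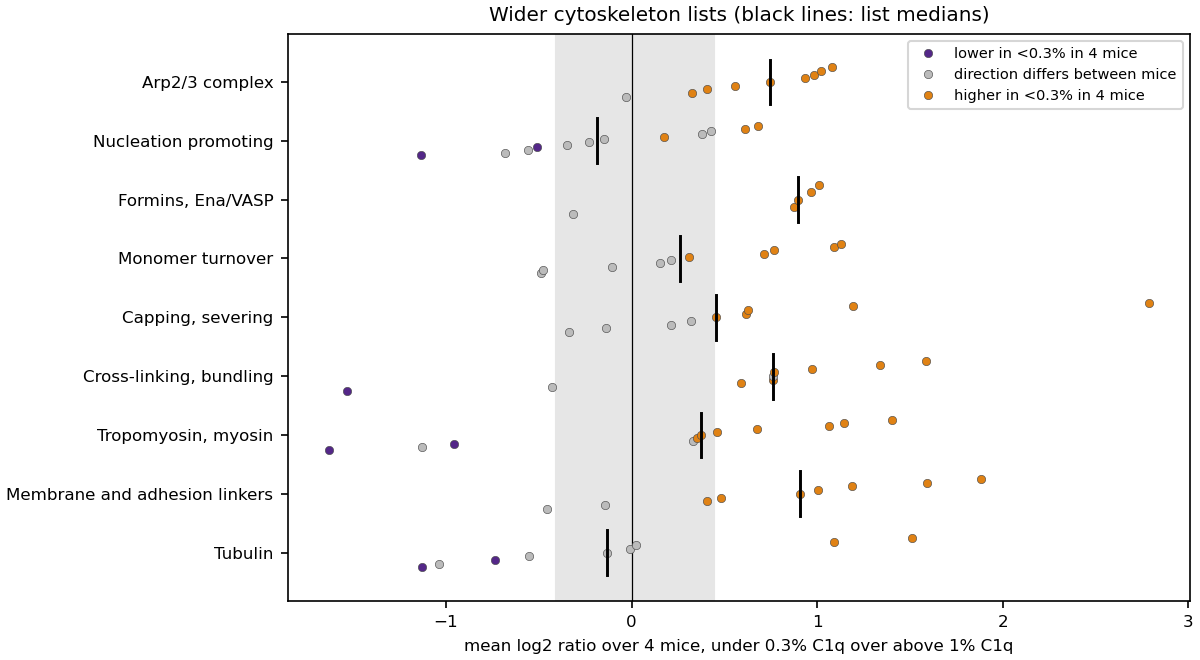
Mean log2 ratio over 4 mice of cells under 0.3% C1q to cells above 1% C1q (horizontal) for the 83 tested genes of 9 cytoskeleton lists, coloured by whether all 4 mice had the same direction, with list medians as black lines and the quartiles of all genes tested in grey. Capg lies farthest right at 2.79, and on the TMM scale, not plotted, the median of all these genes moves from 0.43 to 0.03.

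Promoters of the members were read as a description. RefSeq windows of GRCm38.p6, the 250 bases before each start, held 8 of the 10 members in 12 windows. Actb and Lsp1 had no window, so that their promoters were not read. The CArG box, the site of serum response factor, was in 1 of these 12 windows, of Actg1. It was in 1.47% of the 32851 windows of all genes, both strands read. In Actg1 it lies between 90 and 81 bases before the start and is capitalised in the stretch at chr11:120348531-120348630 (minus strand), which precedes the RefSeq start of the gene.
Actg1 promoter: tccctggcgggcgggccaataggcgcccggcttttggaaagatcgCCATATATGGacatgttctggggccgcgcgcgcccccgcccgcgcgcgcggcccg
The Sp1-type letters GGGCGG were in 8 of the 12 member windows and in 32.7% of all windows. The 8 windows were of 6 members (Actg1, Coro1a, Lcp1, Pfn1, Tmsb10 and Tmsb4x). Of the 8 members with a window, Vim alone held TATAAA, 32 to 27 bases before its start (12.4% of all windows). It alone also held GAGGAA, the core read by PU.1-type factors (23.3%). Tmsb10, which varied most among the members with a window, and Tmsb4x, which varied little, held the same one of the 4 motifs. The members lie on 8 chromosomes. Coro1a (126699773 to 126707787) and Lsp1 (142460809 to 142494867) share chromosome 7, and Actg1 and Pfn1 share chromosome 11.

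The cells left out by the B and plasma cell list had member levels like the retained cells where C1q was high. In the 130 such cells above 1% C1q, Tmsb4x was at 19591 CPM, Actb at 5443, Tmsb10 at 503 and Lsp1 at 67.7 CPM, against 20444, 7769, 565 and 82.1 CPM in the retained cells of that bin, all mice pooled. In the 17 such cells under 0.3% C1q, Tmsb4x was at only 5757 CPM, Tmsb10 at 1983 and Lsp1 at 397 CPM, against 22568, 6981 and 1318 CPM in the retained cells.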

How the data were processed

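Cells of 4 mice (2 DEP, 2 PBS) were measured by 10x 3′ single-cell RNA-seq. Reads were aligned to mm10 by the authors (Cell Ranger, STAR 2.6.1a). Cells with few UMIs, few genes or a high mitochondrial share had been removed, and the authors deposited the raw UMI counts without normalization. Columns carry the mouse in their name.

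From these counts, cells were left out where 3 markers of another class (dendritic cells not among the classes) were detected. No doublet caller was run. Cells were binned by C1q share at 0.3% and 1%, and UMIs summed per mouse, since cells are not replicates. The groups were tested with edgeR 4.0.16 (TMM, quasi-likelihood test, Benjamini-Hochberg) on genes above 1 CPM in at least 2 libraries and detected in 5% of cells, in R 4.3.3. DESeq2 1.42.0 was an alternative. Shares were compared by exact permutation in Python 3.11.15 with scipy 1.17.1. Bins were described by log2 CPM with a pseudocount of 10 CPM, without a test. The tests were also run on simulated data, drawn with the means and dispersions of these counts.

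Named from the wider lists were the 2 most abundant genes per list, genes called, and the 5 with the largest ratio per direction at 50 CPM or more, and for the members at both ends of the ratio the 3 genes nearest in pattern. Another list of cytoskeleton regulators is not reported here. Members and lists were chosen with earlier results of these data known. Intervals cover counting error only.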

Additional observations from a re-analysis of the deposited data

Results flagged for a closer look

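Coro1a is given here because its groups of mice stood on opposite sides in 2 bins, a difference that was not tested. In cells with 0.3 to 1% C1q the DEP mice were both above the PBS mice (759 and 968 against 602 and 463 CPM, log2 fold change 0.71), on 17 to 57 UMIs per mouse, and above 1% C1q both were below (522 and 523 against 669 and 562 CPM, −0.24). Neither passed the threshold (edgeR adjusted p = 0.793 and 0.906).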

How the results depend on the processing

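No paired analysis was possible because the DEP and PBS mice share no replicate number. The cause of the changes given here was not tested, and the alternatives on immunoglobulin transcripts and on a pseudocount of 1 CPM were chosen after seeing the data. Genes called over all cells (2) were 1 with DESeq2, 48 without the filter, 1 with all cells, 0 after thinning, 1 with the immunoglobulin transcripts not used, 0 with matched bin shares and 0 to 48 with a mouse left out. Under 0.3% C1q (30) they were 0 with DESeq2, 9 with all cells, 2 after thinning, 16 with the immunoglobulin transcripts not used, 8 with bins from thinned counts and 12 to 25 with a mouse left out. In the middle bin (23) they were 0 with DESeq2, 0 after thinning, 37 with bins from thinned counts and 3 to 22 with a mouse left out. Above 1% (0) they were 14 without the filter, 3 with the immunoglobulin transcripts not used and 9 to 34 with a mouse left out. Members called were 0 throughout, except 1 over all cells without the filter, and 0 to 1 with a mouse left out over all cells, in the middle bin and above 1%.

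Of the 40 member values, 25 changed sign under at least 1 alternative. None of the 40 was called as reported, and of the changed signs Vim in the middle bin without PBS mouse 3 passed the threshold (2.81). Among those given, Lsp1 turned to −0.19 over all cells with matched bin shares and to 0.067 under 0.3% after thinning. With a mouse left out, Actb ran over all cells from −0.57 to 0.22, and above 1% Actb from −0.69 to 0.10, Tmsb10 from −0.24 to 0.28 and Lsp1 from −0.046 to 0.49. The DEP minus PBS share of the middle bin (1.03 points) turned to −0.34 with all cells, −7.46 with 3 equal groups by C1q share and −0.0012 with the immunoglobulin transcripts not used, that of the lowest such group was 5.76 points against 10.1 under 0.3%, and that of the highest 1.7 points against −11.2 above 1%. The median ratio of the members along C1q (0.75) was 0.60 with all cells, 0.72 after thinning, 0.39 with 3 equal groups, 0.81 with the immunoglobulin transcripts not used, 0.28 after TMM scaling and 0.72 as a mean over cells, and 0.73 to 0.78 with a mouse left out. Members higher in every mouse (9) were 5 after TMM scaling and 7 to 9 otherwise. Tmsb4x turned to −0.091 with all cells and −0.34 after TMM scaling, Pfn1 to −0.12 and Cfl1 to −0.11 after TMM scaling. Depth limits the lower bins most, with 53953 to 176610 UMIs per mouse under 0.3% and 28229 to 58894 in the middle bin.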
